A study of Mus musculus with 12 samples.

Results

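Aminoacyl-tRNA synthetases join each amino acid to its tRNA before translation. The genes described here are 36 listed synthetase genes of the 55487 genes in the count table, chosen by name: 20 that supply the cytosol and 16 that supply mitochondria. They were measured by RNA sequencing in B16F10 cells, a mouse melanoma line labelled wild type, exposed for 24 h to the conditioned medium of macrophages grown from bone marrow (BMDM). Each of the 4 groups had 3 libraries and differed in how the macrophages had been treated for 24 h. In the TAM group, labelled B16F10-BMDM, the macrophages had received 75% medium conditioned by B16F10 cells. In the M1 group they had received 20 ng/ml of the factor spelled INF-γ in the labels, in the M2 group 20 ng/ml IL-4, and in the M0 group control DMEM only. Every group, M0 included, therefore received macrophage medium. Whether stimuli or tumour-cell medium were washed away before the macrophage medium was collected is not given in the sources used here. The labels also do not say that the 3 libraries of a group were separate cultures, so each p-value reflects library-to-library spread that could be technical.

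In mammals the cytosolic and the mitochondrial synthetases are all encoded in the nucleus, mostly as separate genes whose mitochondrial member ends in 2. Some genes serve both compartments: Gars and Kars each encode a cytosolic and a mitochondrial form of the glycine and lysine enzymes. Both are counted here as cytosolic members, so their RNA also includes that for the mitochondrial form. Eprs carries the glutamate and proline enzymes in a single cytosolic protein. Cytosolic synthetase genes are known targets of the amino acid response, in which the transcription factor ATF4 binds C/EBP-ATF elements, and Wars, the tryptophan enzyme, is known to be induced by interferon gamma.

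Promoter windows, running from 250 bases before to 50 bases after the annotated start, were found in the RefSeq table of build GRCm38.p6 for 27 of the 36 members, 13 cytosolic and 14 mitochondrial. These 27 members have 28 windows in all because Aars2 has 2. The letters TGATGNAA, a form of the C/EBP-ATF element, were searched on both strands. They occurred in the windows of 5 of the 13 cytosolic members and 0 of the 14 mitochondrial members, against 3.97% of 32851 windows in the whole table. A stretch holding the element is shown for each of Gars, Iars, Tars, Yars and Aars because all 5 of these genes were higher in TAM than in M2 libraries. Capitals mark the element, which in every gene but Yars lies on the opposite strand and so appears as its reverse complement. The stretches are written 5′ to 3′ on the strand of the gene and lie at chr6:55037960-55037989 (plus strand) for Gars, chr13:49682126-49682155 (plus) for Iars, chr15:11399655-11399684 (minus) for Tars, chr4:129189895-129189924 (plus) for Yars, and chr8:111033840-111033869 (plus) for Aars.
Gars: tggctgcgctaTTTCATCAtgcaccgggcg
Iars: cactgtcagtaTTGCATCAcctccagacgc
Tars: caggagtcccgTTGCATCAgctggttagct
Yars: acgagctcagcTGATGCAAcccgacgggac
Aars: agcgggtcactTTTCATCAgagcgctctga

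These matches describe letters in a reference sequence. No binding was measured. Of the 9 matched cytosolic members called higher in TAM than in M2 libraries, 5 held the element, and Eprs, Dars, Farsb and Sars did not. Wars, Lars, Nars and Rars, which carry several of the largest changes below, were not among the matched windows.

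Libraries held 15916756 to 20863973 counts, and each of the 36 members passed the filter on low counts, with raw counts between 116 (Pars2) and 27846 (Eprs) per library. All 8 melanocyte markers passed the filter. Their summed level was 14634 to 15471 CPM (counts scaled to a common library size) in TAM, 13979 to 14486 CPM in M1, 19358 to 19725 CPM in M2 and 20809.5 to 21034 CPM in M0 libraries. In TAM versus M0, 6 of the 8 fell, 4 of them by more than 2-fold, where 27.2% of all genes fell. In M1 versus M0, 5 of the 8 fell, 4 of them by more than 2-fold, where 13.5% of all genes fell. The part of these falls in the results was not tested. Of 12 macrophage markers, 4 passed the filter, the defining genes Ptprc, Adgre1, Itgam and Tyrobp were at 0 in every library, and the summed level was 3.44 to 4.29 CPM in TAM, 6.54 to 7.03 CPM in M1, 5.46 to 6.38 CPM in M2 and 5.22 to 7.77 CPM in M0 libraries. Of 8 fibroblast and endothelial markers 3 passed the filter and Cdh5, Kdr and Dcn were at 0, with a summed level of 9.98 to 12.01 CPM in TAM, 2.74 to 4.34 CPM in M1, 6.22 to 6.98 CPM in M2 and 4.53 to 6.79 CPM in M0 libraries; their part in the results was not tested. M0 replicate 1 stood apart. Its log2 levels correlated with those of the other M0 libraries at r = 0.950 and r = 0.952, while every other pair of replicates reached at least 0.9966. Its share of counts on ribosomal protein genes was 7.11%, where the other 11 libraries had 3.21% to 3.75%. Its mean exon length weighted by counts was 4545 bases, where theirs was 5819 to 6091 bases. Within M0, 17 of the 20 cytosolic members and 12 of the 16 mitochondrial members were higher in replicate 1 than in the mean of the other libraries, with median log2 differences of 0.47 and 0.32. Results are therefore given with and without this library.

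Cytosolic synthetase RNA stood well above mitochondrial synthetase RNA in every group. Per kilobase of exon, the median cytosolic level was 59.6 CPM in TAM, 46.9 CPM in M1, 44.3 CPM in M2 and 45.1 CPM in M0 libraries. The median mitochondrial level per kilobase was 4.45 CPM in TAM, 4.54 CPM in M1, 4.82 CPM in M2 and 4.73 CPM in M0 libraries. Without M0 replicate 1 the M0 medians were 45.2 CPM for cytosolic and 4.86 CPM for mitochondrial members. Gars was the highest cytosolic member by this measure, at 354 CPM per kilobase in TAM and 240.1 CPM per kilobase in M0 libraries, or 188.8 without M0 replicate 1. The highest mitochondrial member was Rars2 in TAM libraries (17.7 CPM per kilobase) and Iars2 in M0 libraries (17.4 CPM per kilobase), and 18 of the 20 cytosolic members lay above the highest mitochondrial member in TAM, 19 in M1, 19 in M2 and 20 in M0 libraries. Without M0 replicate 1, Iars2 stood at 19.1 CPM per kilobase in M0 libraries and the M0 count was 19.

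The distance between the classes was largest in TAM libraries and next largest in M1 libraries. The mean log2 CPM over cytosolic members minus the mean over mitochondrial members was 3.52, 3.47 and 3.45 in the TAM libraries, 3.27, 3.17 and 3.26 in the M1 libraries, 2.93, 2.79 and 2.85 in the M2 libraries, and 3.07, 2.82 and 2.87 in the M0 libraries. All TAM libraries lay above all M1 libraries, which lay above all M2 and M0 libraries, and M2 and M0 overlapped. The highest M0 value belonged to replicate 1. Cytosolic members together made up 8222 ± 35.0 CPM in TAM, 6263 ± 197 CPM in M1, 4775 ± 232 CPM in M2 and 5263 ± 915 CPM in M0 libraries (SD, n = 3 each). M0 replicate 1 held 6308 CPM and the other M0 libraries 4606 and 4877 CPM, within the M2 range of 4534 to 4997 CPM. Mitochondrial members together made up 553 ± 9.58 CPM in TAM, 579 ± 8.69 CPM in M1, 599 ± 2.44 CPM in M2 and 609 ± 13.2 CPM in M0 libraries. M0 replicate 1 held 623 CPM and the other M0 libraries 596 and 607 CPM. A difference averaged over listed genes was given no p-value. In bulk RNA, fewer cells carrying a transcript and less RNA per cell cannot be told apart.

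**Figure D1:**
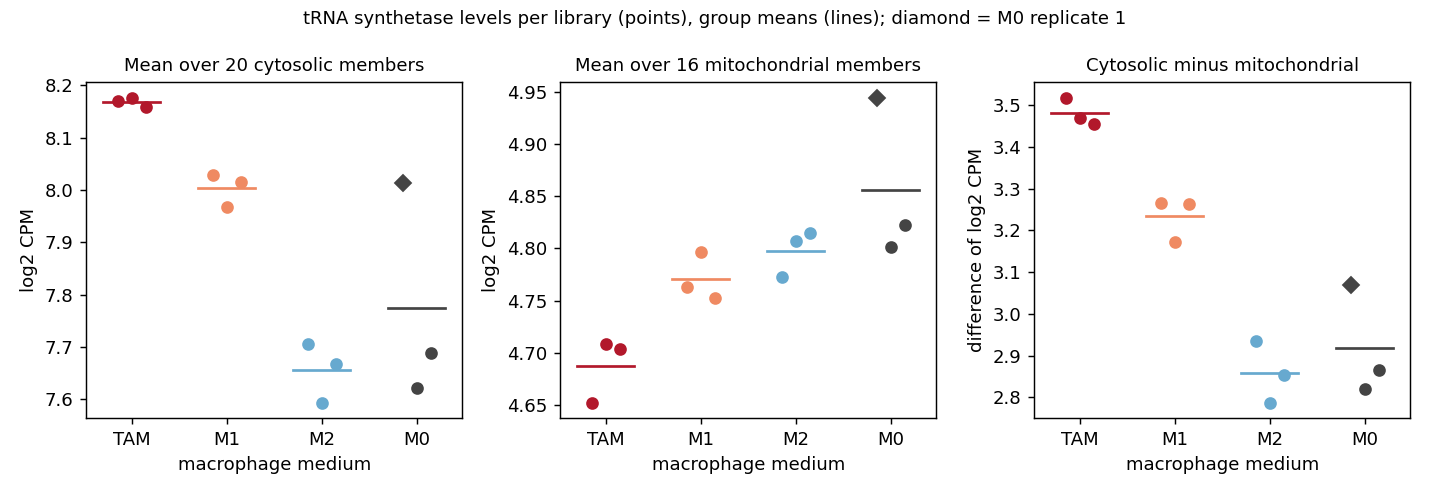
Mean log2 CPM over the 20 cytosolic members (left), over the 16 mitochondrial members (middle) and their difference (right), with a point for each library, a line for each group mean and a diamond for M0 replicate 1. The difference is 3.45 to 3.52 in TAM libraries and 2.82 to 3.07 in M0 libraries, and the vertical axes do not start at 0.

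TAM medium raised most cytosolic synthetases and lowered a smaller group of them, while 7 of the 16 mitochondrial synthetases fell and 3 rose. In the quasi-likelihood test of edgeR over 14591 genes, with Benjamini-Hochberg adjusted p under 0.05 as the call, 16 of 20 cytosolic members changed in TAM versus M0, 11 higher and 5 lower. Of all genes tested, 50.5% were called in this comparison, 23.3% higher and 27.2% lower. Among mitochondrial members, 3 of 16 were higher and 7 lower. The median log2 fold change was 0.51 over cytosolic members and −0.28 over mitochondrial members, against −0.02 over all genes. Each TAM library lay above each M0 library for 11 cytosolic and 4 mitochondrial members and below for 5 and 7, where this held for 29.9% of all genes upward, 29% downward and 58.9% in all. Leaving out M0 replicate 1, the cytosolic counts were 14 higher and 5 lower and the mitochondrial counts 4 higher and 8 lower, with 66.7% of all genes called, 33% higher and 33.7% lower. The medians were then 0.64 over cytosolic and −0.17 over mitochondrial members.

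The members with the largest rise were Eprs, Lars, Wars, Nars and Rars, all more than doubled with TAM medium. Lars, the leucine enzyme and a known leucine sensor for mTORC1 (chr18:42202298-42262194 in GRCm38, minus strand), had 365, 371 and 365 CPM in TAM libraries, 215, 199 and 206 CPM in M1, 150.0, 126 and 135 CPM in M2, and 144, 117 and 138 CPM in M0 libraries. TAM stood highest and M1 next, each without overlap, while M2 and M0 shared a range. Its level was 2.76-fold that of M0 (log2 fold change 1.46 ± 0.10 SE, adjusted p = 1.07e-06).

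Nars, the asparagine enzyme, had 713, 722 and 712 CPM in TAM libraries, 406, 382 and 397 CPM in M1, 329.7, 282 and 312 CPM in M2, and 316, 297 and 314 CPM in M0 libraries. Its TAM libraries lay far above the rest and M0 replicate 1 did not stand out. The log2 fold change from M0 was 1.21 ± 0.09 (adjusted p = 1.06e-06). Eprs, which also controls translation of inflammatory transcripts in interferon-treated human myeloid cells, had 1385, 1378 and 1398 CPM in TAM libraries, 735, 648 and 687 CPM in M1, 575, 512 and 529.9 CPM in M2, and 361, 516 and 572 CPM in M0 libraries. Here M0 replicate 1 was the lowest of all libraries, and the log2 fold change of 1.52 ± 0.15 became 1.35 ± 0.05 without it.

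Rars, the arginine enzyme, had 466, 456 and 472 CPM in TAM libraries, 255, 253 and 239.8 CPM in M1, 188, 174 and 179 CPM in M2, and 254, 179.9 and 186 CPM in M0 libraries. TAM was again far above the rest, and M0 replicate 1 reached the M1 range (log2 fold change 1.17 ± 0.13 with all libraries, 1.34 ± 0.04 without it). Tars, the threonine enzyme, changed less but with little spread: 283, 277 and 283 CPM in TAM libraries against 205, 196 and 198 CPM in M0 libraries, a log2 fold change of 0.50 ± 0.08 (adjusted p = 0.000253). The other called rises were those of Farsb (0.69), Dars (0.63), Iars (0.60), Gars (0.56) and Aars (0.43), which serve phenylalanine, aspartate, isoleucine, glycine and alanine. Exosc6 shares 1326 exon bases with Aars on the same strand, and 13.8% of the 50-base stretches of Aars occur in another gene, so its value is uncertain. For Iars 7.15% of such stretches occur in another gene. The Gars call was lost in 13 of the 19 alternatives and the Aars call in 6.

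The cytosolic members that were not called in TAM versus M0 were Sars, Yars, Cars and Vars. Sars, the serine enzyme, had 642, 669.9 and 657 CPM in TAM libraries and 703, 319.8 and 339 CPM in M0 libraries, so that M0 replicate 1 exceeded every TAM library (log2 fold change 0.53 ± 0.25, adjusted p = 0.094). Without that library its log2 fold change was 0.99 ± 0.06 and it was called, as were Yars (0.69) and Cars (0.66). Vars, the valine enzyme, was not called either way (−0.07 with all libraries and 0.09 without replicate 1).

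**Figure D2:**
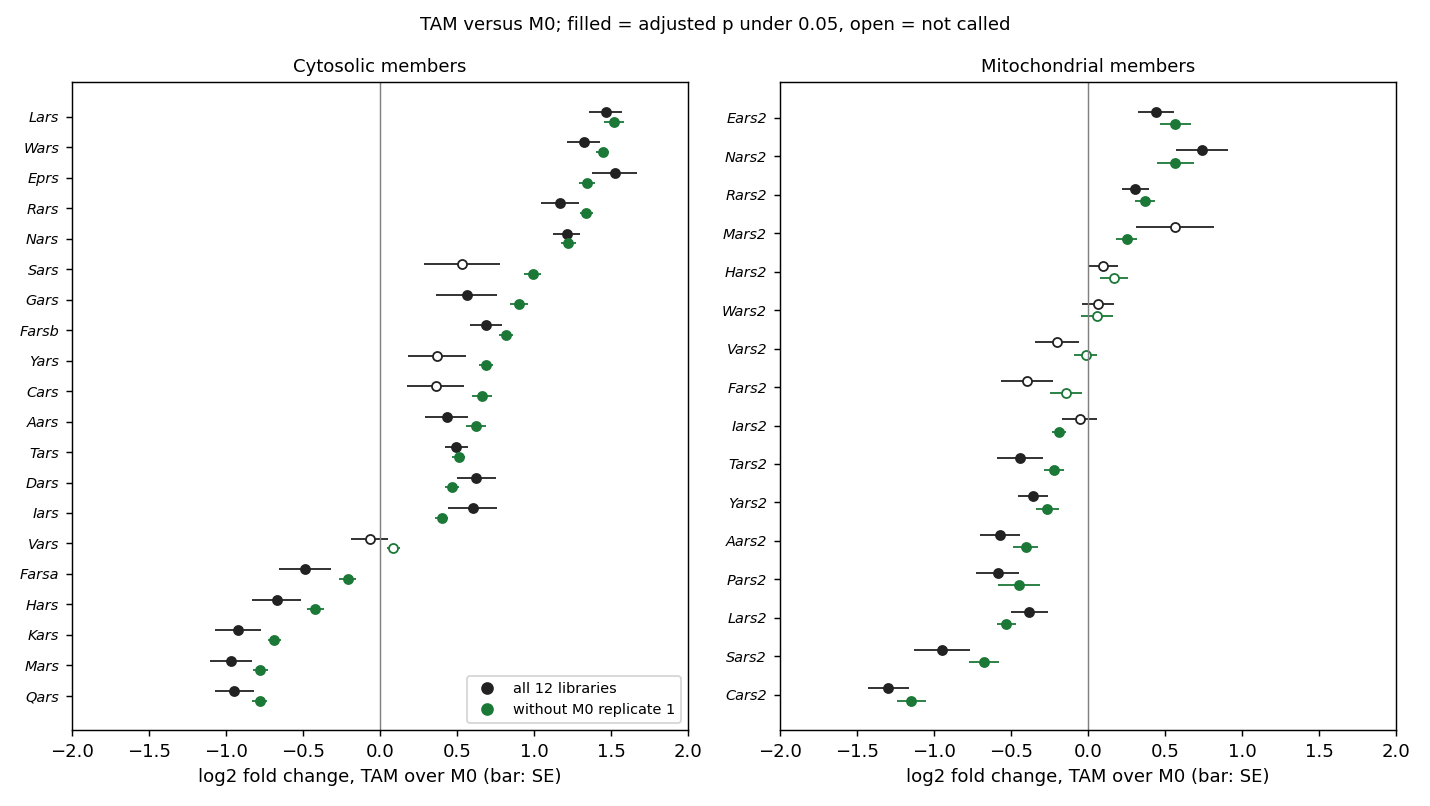
Log2 fold change of TAM over M0 for each cytosolic member (left) and mitochondrial member (right), with SE bars, from all 12 libraries (black) and without M0 replicate 1 (green); filled points passed adjusted p 0.05. Cytosolic members spread from −0.97 (Mars) to 1.52 (Eprs) and mitochondrial members from −1.30 (Cars2) to 0.74 (Nars2).

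Against the rise of the class, Mars, Qars, Kars, Hars and Farsa fell with TAM medium. Kars, the lysine enzyme (chr8:111993443-112011323, minus strand), had 153, 157 and 152 CPM in TAM libraries, 406, 419.9 and 417 CPM in M1, 244, 243 and 249 CPM in M2, and 380.2, 248 and 246 CPM in M0 libraries. TAM stood lowest and M1 highest, with no overlap of either with any other group. The log2 fold change of TAM over M0 was −0.92 ± 0.15 (adjusted p = 0.000425).

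Qars, the glutamine enzyme, had 88.8, 90.4 and 83.8 CPM in TAM libraries and 206, 146 and 154 CPM in M0 libraries, a log2 fold change of −0.94 ± 0.12 (adjusted p = 9.38e-05). Mars, the methionine enzyme, had 88.7, 84.1 and 76.8 CPM in TAM libraries and 204, 141 and 143 CPM in M0 libraries, a log2 fold change of −0.97 ± 0.14 (adjusted p = 0.000162). In both genes each TAM library lay below each M0 library, and M0 replicate 1 was the highest. Hars, the histidine enzyme, had 58.8, 60.4 and 61.0 CPM in TAM libraries and 127, 77.9 and 82.2 CPM in M0 libraries (log2 fold change −0.67 ± 0.16). All 5 falls were called without M0 replicate 1 as well, at smaller sizes: −0.78 for Mars, −0.78 for Qars, −0.69 for Kars, −0.42 for Hars and −0.21 for Farsa.

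Farsa and Farsb encode the α and β subunits of the same cytosolic phenylalanine enzyme, and they moved in opposite directions. Farsa had 63.0, 64.5 and 69.2 CPM in TAM libraries and 125, 75.5 and 75.6 CPM in M0 libraries. Farsb had 235, 232 and 227 CPM in TAM libraries and 168, 129 and 133 CPM in M0 libraries. The TAM and M0 libraries did not overlap for either subunit, with log2 fold changes of −0.49 ± 0.17 (adjusted p = 0.032) for Farsa and 0.69 ± 0.11 (adjusted p = 0.000267) for Farsb. Farsa lost its call when any single TAM library was left out, with adjusted p up to 0.143 over all alternatives. Per kilobase, Farsb RNA stood at 88.3 CPM in TAM and 54.7 CPM in M0 libraries and Farsa RNA at 14.4 CPM in TAM and 20.3 CPM in M0 libraries. Without M0 replicate 1 the M0 values were 49.9 CPM for Farsb and 16.6 CPM for Farsa. These levels divide by the merged length of all annotated exons, 2620 bases for Farsb and 4538 bases for Farsa. That length can differ from the expressed transcript, so the balance of the subunits cannot be read from them. Farsb shares 248 exon bases with Sgpp2 on the opposite strand, and since the strand setting is not given in the sources used here, reads of that overlap could count for either gene.

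Members of the cytosolic multi-synthetase complex split in the same comparison. This complex holds 8 of the listed synthetases around the scaffold proteins encoded by Aimp1, Aimp2 and Eef1e1. With TAM medium, Eprs, Lars, Rars, Dars and Iars rose and Kars, Mars and Qars fell, both against M0 and against M2. Against M2 the Iars call was lost in 11 of the 19 alternatives and the Dars call in 5. Among the 12 cytosolic members outside the complex, 6 rose and 2 fell against M0, and 9 rose and 2 fell without M0 replicate 1. Of all genes, 23.3% rose and 27.2% fell with all libraries, and 33% rose and 33.7% fell without M0 replicate 1. The scaffold gene Eef1e1 rose (0.39 ± 0.08, adjusted p = 0.002), while Aimp1 (−0.07 ± 0.19) and Aimp2 (−0.15 ± 0.19) were not called, although Aimp1 was called higher at 0.26 without M0 replicate 1. By catalytic fold, 4 of the 9 class I members rose and 2 fell, and 6 of the 10 class II members rose and 3 fell, with Eprs counted in neither because it holds a domain of each class.

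**Figure D3:**
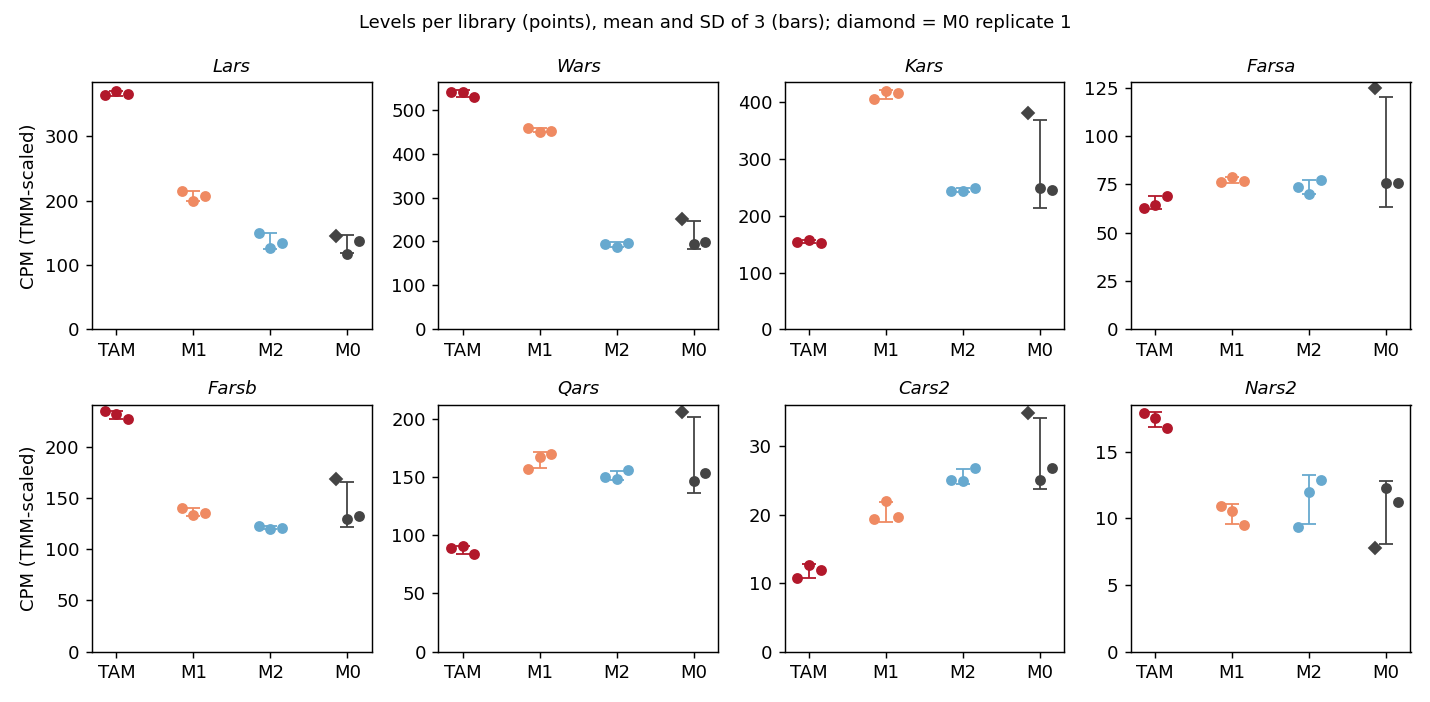
CPM per library (points) with the mean and SD of 3 libraries (bars) for 8 members, with a diamond for M0 replicate 1 and each vertical axis starting at 0. Lars, Wars, Farsb and Nars2 are highest in TAM libraries, Kars, Farsa, Qars and Cars2 are lowest there, and Kars is highest in M1 libraries at 406 to 419.9 CPM.

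Mitochondrial members mostly fell or did not pass the test with TAM medium. Cars2, which charges mitochondrial cysteine tRNA (chr8:11513977-11550783, minus strand), changed most: 10.8, 12.7 and 11.9 CPM in TAM libraries, 19.4, 22.1 and 19.7 CPM in M1, 25.1, 24.9 and 26.8 CPM in M2, and 34.9, 25.1 and 26.9 CPM in M0 libraries. TAM lay lowest, M1 next and M2 and M0 highest, and the log2 fold change of TAM over M0 was −1.30 ± 0.13 (adjusted p = 1.54e-05). Cars2 shares 422 exon bases with Naxd on the opposite strand.

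Sars2, for serine, had 12.4, 14.6 and 14.4 CPM in TAM libraries and 36.1, 21.6 and 22.2 CPM in M0 libraries (log2 fold change −0.95 ± 0.18, adjusted p = 0.001). Aars2, for alanine, had 21.9, 25.4 and 21.7 CPM in TAM libraries and 41.6, 32.0 and 28.9 CPM in M0 libraries (−0.57 ± 0.13). Pars2, for proline and the least counted member, had 6.06, 7.67 and 7.08 CPM in TAM libraries and 12.4, 9.45 and 9.44 CPM in M0 libraries (−0.59 ± 0.14). In each of these genes the TAM and M0 libraries did not overlap and M0 replicate 1 was the highest library, and without it the log2 fold changes were −0.67, −0.40 and −0.45. Tars2 (−0.44), Lars2 (−0.38) and Yars2 (−0.36) also fell. Without M0 replicate 1 the Tars2 value was −0.22, and over the 19 alternatives the Lars2 call was lost in 7, the Tars2 call in 3 and the Yars2 call in 1.

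Nars2, Ears2 and Rars2 rose against the direction of the class. Nars2, for asparagine, had 17.9, 17.5 and 16.8 CPM in TAM libraries and 7.80, 12.3 and 11.2 CPM in M0 libraries (log2 fold change 0.74 ± 0.17, adjusted p = 0.004). Ears2, which loads glutamate on both the glutamate and the glutamine tRNA of mitochondria, had 21.7, 21.1 and 21.3 CPM in TAM libraries and 18.5, 14.5 and 14.3 CPM in M0 libraries (0.44 ± 0.12). Rars2, for arginine, had 51.6, 48.0 and 47.6 CPM in TAM libraries and 43.2, 37.6 and 38.0 CPM in M0 libraries (0.31 ± 0.09). For all 3 genes each TAM library lay above each M0 library. Mars2, Iars2, Fars2, Hars2, Vars2 and Wars2 were not called, and without M0 replicate 1 Mars2 (0.25) was called higher and Iars2 (−0.19) lower. The Iars2 value is uncertain, since 2034 of its exon bases overlap Rab3gap2 on the opposite strand and 22.7% of its 50-base stretches occur in another gene as well.

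The ratio of a cytosolic gene to its mitochondrial partner compares both enzymes of an amino acid within a library, so that library scaling cancels. Of 17 such pairs, 11 had a higher ratio in each TAM library than in any of the other 9 libraries. The pairs are not all separate, since Eprs was paired with both Ears2 and Pars2, and Fars2 with both Farsa and Farsb. No share over other gene pairs was computed for comparison. Among single genes, 29.9% had each TAM library above each M0 library, a looser condition than lying above all 9 other libraries. The share of single genes above all 9 was not computed. Relative to M2 libraries, leucine and cysteine had the largest shifts. The log2 ratio of Lars to Lars2 was 3.16, 3.26 and 3.17 in TAM libraries, 2.20, 2.12 and 2.19 in M1, 1.53, 1.28 and 1.28 in M2, and 1.81, 1.06 and 1.23 in M0 libraries. The log2 ratio of Cars to Cars2 was 4.38, 4.13 and 4.20 in TAM libraries and 2.77, 2.46 and 2.39 in M0 libraries, although Cars itself was not called against M0. For proline, the mean log2 ratio of Eprs to Pars2 was 7.65 in TAM, 6.44 in M1, 5.98 in M2 and 5.52 in M0 libraries. It was 4.87 in M0 replicate 1 and 5.77 and 5.92 in the other M0 libraries.

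In methionine and histidine the ratio moved the other way. Mars to Mars2 had log2 ratios of 0.79, 0.71 and 0.40 in TAM libraries, 2.08, 1.94 and 1.97 in M1, 1.65, 1.63 and 1.80 in M2, and 3.42, 1.73 and 1.61 in M0 libraries, lowest in TAM. The Hars to Hars2 ratio was also lowest in TAM libraries, at a mean of 1.47 against 2.20 in M0, and the genes overlap head to head by 195 exon bases. This ratio was 2.51 in M0 replicate 1 and 1.95 and 2.14 in the other M0 libraries. For tryptophan, the mean log2 ratio of Wars to Wars2 was 5.02 in TAM and 4.97 in M1, which overlapped, against 3.64 in M2 and 3.75 in M0 libraries. The remaining exceptions were Nars to Nars2, Vars to Vars2 and Farsa to Fars2, whose mean log2 ratios in TAM and M0 libraries were 5.36 and 4.92, 2.88 and 2.76, and 2.30 and 2.39. For Nars to Nars2, M0 replicate 1 was at 5.34 and the other M0 libraries at 4.60 and 4.81.

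**Figure D4:**
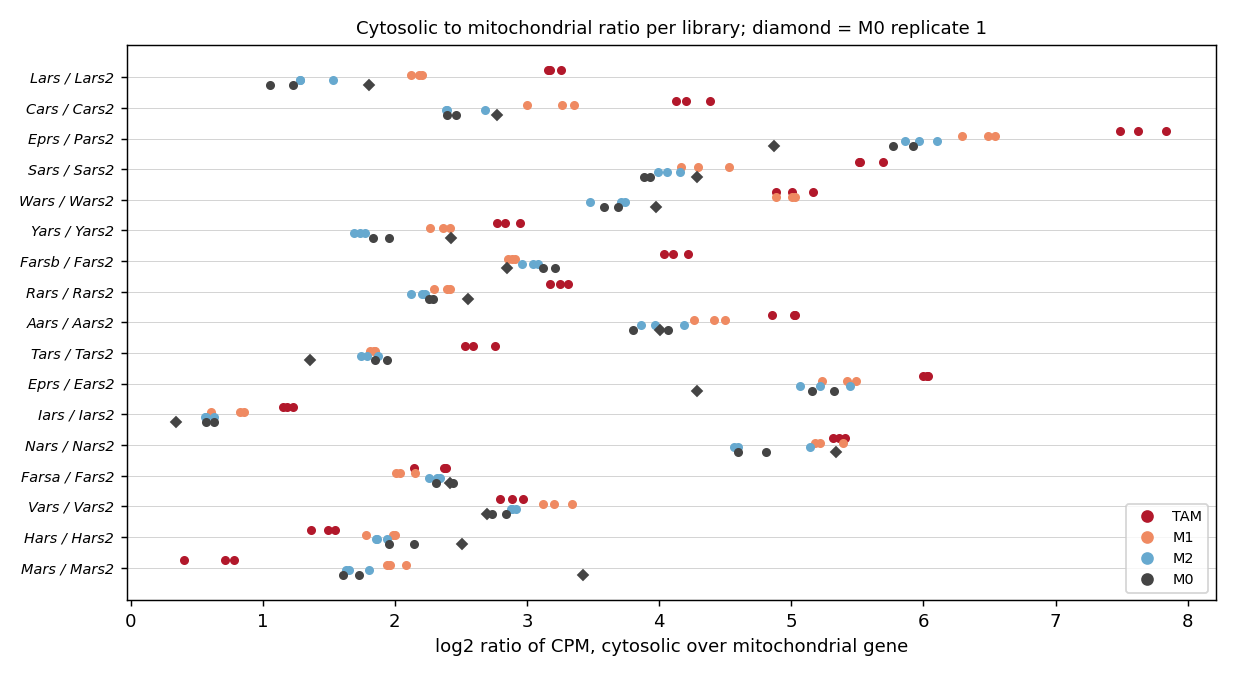
Log2 ratio of CPM of each cytosolic gene to its mitochondrial partner, 1 point per library, with TAM, M1, M2 and M0 in separate colours and a diamond for M0 replicate 1. TAM points lie to the right of all others in 11 of 17 pairs and to the left of all others for Mars to Mars2 and Hars to Hars2.

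With M1 medium fewer members changed. Against M0, 7 cytosolic members were higher and 0 lower, and 1 mitochondrial member was higher and 1 lower, where 25.7% of all genes were called, 12.2% higher and 13.5% lower. The median log2 fold change was 0.17 over cytosolic and −0.06 over mitochondrial members, against −0.02 over all genes. These values depended on M0 replicate 1: without it the medians were 0.38 over cytosolic and −0.10 over mitochondrial members, 15 cytosolic members were higher and 0 lower and 4 mitochondrial members higher and 4 lower, with 47.1% of all genes called, 24.3% higher and 22.9% lower. Leaving out M1 replicate 1 or M1 replicate 3 left 3 and 4 cytosolic members higher, with 1294 of 14952 and 1301 of 14960 genes called higher. Wars and Lars kept their calls under all 19 alternatives.

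Wars, the tryptophan enzyme (chr12:108860030-108894174, minus strand), had 541, 541 and 529 CPM in TAM libraries, 459, 450.2 and 450.5 CPM in M1, 195, 187 and 196 CPM in M2, and 252, 195 and 198 CPM in M0 libraries. Both TAM and M1 libraries stood at more than 1.5 times every M2 and M0 library. The log2 fold change from M0 was 1.08 ± 0.10 with M1 medium (adjusted p = 2.26e-05) and 1.32 ± 0.11 with TAM medium (adjusted p = 2.28e-06). Each TAM library exceeded each M1 library, yet the difference of 0.24 ± 0.10 was not called (adjusted p = 0.079), and it was called at 0.20 without M0 replicate 1.

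The other cytosolic members called higher with M1 medium were Lars (0.64 ± 0.10, adjusted p = 0.001), Tars (0.32 ± 0.08, adjusted p = 0.010), Eprs (0.51), Kars (0.51), Dars (0.39) and Nars (0.35). Tars had 253, 248 and 245 CPM in M1 libraries and 205, 196 and 198 CPM in M0 libraries, with no overlap. Among mitochondrial members, Rars2 rose (0.28 ± 0.09) and Cars2 fell (−0.51 ± 0.13). The Rars2 call was lost in 11 of the 19 alternatives, the Dars call in 12 and the Kars call in 7.

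Kars was the member called in opposite directions with TAM and with M1 medium, at −0.92 and 0.51 against the shared M0 libraries. The direct comparison of TAM with M1 libraries gave −1.43 ± 0.15 (adjusted p = 2.07e-05), the largest change of any member in that comparison. Kars was also higher in M1 than in M2 libraries (0.75 ± 0.15, adjusted p = 0.005). With that M0 library left out, Qars, Mars2 and Tars2 were called in opposite directions as well.

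M2 medium gave no called member. In M2 versus M0, edgeR called 0 of the 36 members and 0% of all genes, 2 members and 980 genes had an unadjusted p under 0.05, and neither DESeq2, which called 7 genes, nor limma-voom called a member. Without M0 replicate 1 again 0 members were called, with 0.341% of all genes called (0.207% higher, 0.134% lower), and the log2 fold changes of the members lay between −0.14 and 0.11.

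Set against M2 medium, TAM medium raised 14 cytosolic members and lowered Kars, Mars and Qars. This comparison shares its TAM libraries with TAM versus M0. In TAM versus M2, the cytosolic counts were 14 higher and 3 lower, and 3 mitochondrial members were higher and 5 lower, where 43.2% of all genes were called, 20.7% higher and 22.6% lower. Wars (1.48 ± 0.11), Lars (1.42 ± 0.10), Rars (1.37 ± 0.13), Eprs (1.36 ± 0.15) and Nars (1.22 ± 0.09) led the rises. Sars (0.96), Yars (0.75) and Cars (0.62), uncalled against M0, were called here. Among mitochondrial members Cars2 (−1.12 ± 0.13), Sars2, Lars2, Aars2 and Yars2 fell and Nars2, Ears2 and Rars2 rose. The Sars2 and Aars2 calls were each lost in 6 of the 19 alternatives. Without M0 replicate 1, whose spread all groups share in the fit, the cytosolic counts were 14 higher and 5 lower and the mitochondrial counts 4 higher and 8 lower, with 69.5% of all genes called, 34.2% higher and 35.3% lower. The count of mitochondrial members lower was 2 without M2 replicate 3 and 3 without M2 replicate 1, TAM replicate 1 or TAM replicate 3. In these fits 2788 to 2811 of all genes were called lower, against 3293 with all libraries.

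Against M1 medium, TAM medium had 7 cytosolic members higher and 3 lower and 2 mitochondrial members higher and 5 lower, where 43% of all genes were called, 19.8% higher and 23.3% lower. Eprs (1.01 ± 0.15), Rars (0.90 ± 0.13), Nars (0.86 ± 0.09), Lars (0.83 ± 0.10), Farsb (0.76 ± 0.11), Sars (0.71 ± 0.25) and Iars (0.43 ± 0.16) were higher in TAM, and Kars, Qars (−0.91 ± 0.12) and Mars (−0.83 ± 0.14) were lower. The Iars call was lost in 11 of the 19 alternatives and the Sars call in 9. Without M0 replicate 1 the cytosolic counts were 14 higher and 6 lower and the mitochondrial counts 3 higher and 7 lower, with 70.1% of all genes called, 32.4% higher and 37.7% lower. Mitochondrial members lower in TAM numbered 2 without M1 replicate 2 or M1 replicate 3 and 3 without TAM replicate 3. In these fits 2917 to 3060 of all genes were called lower, against 3393 with all libraries. In M1 versus M2, 6 cytosolic members were higher (Wars at 1.23, Kars, Lars, Rars, Tars and Nars) and 0 lower, and Rars2 was the mitochondrial member called, also higher, where 17.2% of all genes were called, 9.72% higher and 7.5% lower. Without M0 replicate 1, which enters this comparison through the shared spread, 24 members were called in place of 7, and 48.3% of all genes, 24.8% higher and 23.5% lower. Without M1 replicate 1, M1 replicate 3 or M2 replicate 2, 4 members were called. In these fits 1060 to 1088 of all genes were called higher and 626 to 661 lower, against 1418 and 1094 with all libraries.

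Genes that work beside the synthetases were read from lists. Of 14 complex and charging partners, 3 rose and 2 fell in TAM versus M0, a share below the 50.5% of all genes called, and 8 rose and 2 fell without M0 replicate 1, when 66.7% of all genes were called. Sepsecs, which makes selenocysteine on its tRNA, rose by 1.33 ± 0.21 on the log2 scale, and Trnt1, which adds the CCA end of tRNAs, by 0.51 ± 0.11. Tarsl2, a further cytosolic threonine enzyme, fell (−0.83 ± 0.20) while Tars rose. Of 11 mitochondrial charging partners, 1 rose and 5 fell, near the share of all genes called, and 3 rose and 5 fell without that library, when 33% of all genes rose and 33.7% fell. Qrsl1 encodes a subunit of the amidotransferase that turns the glutamate loaded by Ears2 into glutamine, and it fell to 17.3, 19.1 and 18.5 CPM in TAM libraries against 30.9, 31.2 and 28.6 CPM in M0 libraries (−0.72 ± 0.09, adjusted p = 4.45e-05), the opposite direction to Ears2. Gtpbp3 (−0.97) and Mto1 (−0.67), which modify mitochondrial tRNAs, and Ppa2 (−0.79), a mitochondrial pyrophosphatase, fell too.

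Of 12 mitochondrial translation factors, 2 rose and 3 fell in TAM versus M0, a smaller share than the 50.5% of all genes. Without M0 replicate 1, 3 rose and 4 fell, when 66.7% of all genes were called. Tufm, the mitochondrial elongation factor that carries charged tRNAs to the ribosome, had 45.5, 54.3 and 48.3 CPM in TAM libraries and 275, 136 and 139 CPM in M0 libraries (−1.90 ± 0.23, and −1.49 ± 0.05 without M0 replicate 1). Gfm1, which moves the mitochondrial ribosome, fell by 1.07 and Tsfm, which recharges Tufm, by 0.77, while Tfam, a mitochondrial transcription factor, rose by 0.76. Of 6 cytosolic elongation factors 0 rose and 3 fell, near the share of all genes called. They were Eef2 (−0.96 ± 0.12), Eef1g (−0.81 ± 0.21) and Eef1d (−0.82 ± 0.25). In the fit without M0 replicate 1 these log2 fold changes were −0.79, −0.42 and −0.34. There 1 factor rose and 4 fell, where 33% of all genes rose and 33.7% fell. Against M2, Eef2 fell at −0.77 and Eef1b2 rose at 0.67, and the others were not called.

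Of 12 listed amino acid response genes, 9 rose and 0 fell in TAM versus M0, where 23.3% of all genes rose and 27.2% fell. Their median log2 fold change was 1.70. Slc7a11, the cystine transporter, had 1263, 1109 and 1231 CPM in TAM libraries and 53.4, 71.7 and 106 CPM in M0 libraries (3.96 ± 0.34). Its partner chain Slc3a2 (2.13 ± 0.20), Sesn2 (2.20 ± 0.16), a leucine sensor, and Chac1 (2.66 ± 0.29), a glutathione-degrading enzyme, rose as well. With M1 medium edgeR called 0 of the 12, with 1 at an unadjusted p under 0.05. Without M0 replicate 1, 7 were called higher, as were 24.3% of all genes. The 10 listed interferon response genes were all called higher in M1 than in M0 libraries, against 12.2% of all genes. Among them, Gbp2 had 4176, 4106 and 3919 CPM in M1 libraries against 1.00, 1.63 and 1.15 CPM in M0 libraries. Cxcl10 was higher by 7.60, Irgm1 by 7.12 and B2m by 4.03 on the log2 scale. In TAM versus M0, 2 of these 10 rose and 3 fell, near the 50.5% of all genes called. Cxcl10 rose by 4.16 and Gbp2 by 1.26 on the log2 scale, and Gbp2 was at 2.82, 2.69 and 3.46 CPM in TAM libraries. Any relation of these genes to the synthetases was not tested.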

How the data were processed

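RNA was extracted with Trizol and sequenced as Illumina mRNA libraries, per the labels' protocols. The table of counts per Ensembl gene was deposited by the authors without normalization, and the submitters' processing notes list HISAT2 2.0 and mm10. No source used here gives the program that counted, its annotation or its strand setting. Symbols were assigned from GENCODE M21 to 55141 of 55487 identifiers. Libraries held 15916756 to 20863973 counts, and SDs over 3 libraries include counting error.

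Counts were tested with edgeR 4.0.16 in R 4.3.3: TMM factors, filterByExpr by group (14591 genes kept), a mean for each of 4 groups over all 12 libraries, robust quasi-likelihood F tests and Benjamini-Hochberg adjustment over all genes tested, with 0.05 as the threshold. The SE is the log2 fold change divided by the root of F. CPM used TMM-scaled totals, and levels per kilobase divided CPM by merged exon length. Without M0 replicate 1, 14968 genes were tested. The pipeline was tested on simulated counts. DESeq2 1.42.0, limma-voom (limma 3.58.1), other scalings, filters and groups, a replicate block and leaving out each library were tried as alternatives.

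Members and lists were chosen with earlier results of these data known. Values per library are given for members called in TAM versus M0 with the 8 smallest adjusted p among cytosolic and the 6 smallest among mitochondrial members, for the 3 smallest in M1 versus M0 and for called members opposite to most of their class. For many of these members only the TAM and M0 libraries are printed. Other lists are represented by up to 4 genes of smallest adjusted p. Farsb, Sars, Aimp1, Aimp2 and Eef1b2 were added after their values were seen.

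A motif search and 1 promoter stretch are not reported here.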

Additional observations from a re-analysis of the deposited data

How the results depend on the processing

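Of the members called, 15 of 26 in TAM versus M0, 2 of 9 in M1 versus M0, 17 of 25 in TAM versus M2, 11 of 17 in TAM versus M1 and 3 of 7 in M1 versus M2 kept their call in all 19 alternatives, and 0 called members reversed. Fitting only the 2 groups compared gave 1 mitochondrial member higher, 3 mitochondrial members lower and 3 cytosolic members lower in TAM versus M0, 2 cytosolic members higher and 0 mitochondrial members either way in M1 versus M0, 8 mitochondrial members lower in TAM versus M2, 14 cytosolic members higher in TAM versus M1 and 24 members called in M1 versus M2. Over all genes, these fits called 2109 of 13868 higher and 2510 lower in TAM versus M0. In M1 versus M0 they called 891 of 13789 higher and 391 lower, and in TAM versus M2 5129 of 13931 lower. In TAM versus M1 they called 5126 of 14077 higher, and in M1 versus M2 3555 of 13800 higher and 3397 lower. Upper-quartile factors gave 0 mitochondrial members higher and 2 lower in M1 versus M0, 3 lower in TAM versus M2 and 2 lower in TAM versus M1. Of 14591 genes, these factors called 1628 higher and 2266 lower in M1 versus M0. They called 3129 lower in TAM versus M2 and 3103 lower in TAM versus M1. With no filter on low counts, 0 mitochondrial members were called in M1 versus M0 and 4 members in M1 versus M2. Of 27593 genes, 1720 were then called higher and 1205 lower in M1 versus M0, and 1313 higher and 629 lower in M1 versus M2. The median over members in place of the mean gave a cytosolic minus mitochondrial level of 3.71 in TAM, 3.32 in M1, 2.74 in M2 and 2.73 in M0 libraries. The cause of these shifts was not tested.

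Leaving out each library in turn, the counts ranged from 3 to 15 for cytosolic members higher, 0 to 4 for mitochondrial members higher and 0 to 4 for mitochondrial members lower in M1 versus M0, from 2 to 8 for mitochondrial members lower in TAM versus M2, from 5 to 14 for cytosolic members higher and 2 to 7 for mitochondrial members lower in TAM versus M1, and from 4 to 24 for members called in M1 versus M2. The highest count came without M0 replicate 1 in each of these, shared with M0 replicate 2 for mitochondrial members lower in M1 versus M0. Of the 14912 to 15005 genes tested in the same fits, 1294 to 3630 were called higher and 993 to 3426 lower in M1 versus M0. In TAM versus M2, 2788 to 5286 were lower, and in TAM versus M1, 2148 to 4843 were higher and 2917 to 5646 lower. In M1 versus M2, 1060 to 3716 were higher and 626 to 3517 lower. In M1 versus M0, 3 members that were not called with all libraries were called with the opposite sign without M0 replicate 1, and other uncalled members also crossed 0 without a call. Leaving out libraries, the Qars log2 fold change ranged from −0.12 to 0.17, the Sars log2 fold change from −0.38 to 0.32 and the Mars2 log2 fold change from −0.23 to 0.28. Same-numbered libraries did not deviate together (correlations −0.20 to 0.25), so the numbers were not read as pairs. With a replicate block the TAM versus M0 counts stayed at 11 and 5 cytosolic and 3 and 7 mitochondrial members, and cytosolic members higher numbered 6 in M1 versus M0, 13 in TAM versus M2 and 6 in TAM versus M1. Of 14591 genes, this block gave 3336 higher and 3735 lower in TAM versus M0. It gave 1602 higher in M1 versus M0, 2876 in TAM versus M2 and 2723 in TAM versus M1. Depth limits members such as Pars2, counted 116 times in 1 library, more than Eprs.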
